A study of Mus musculus with 54 samples.

Results

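Heat shock chaperones are described here by 9 genes, picked by symbol from the 33280 gene symbols of the series, and all 9 were found in each of the 3 count tables. They are the stress-inducible HSP70 genes Hspa1a and Hspa1b, the constitutive HSP70 gene Hspa8, the J-domain co-chaperone gene Dnajb1, the HSP70 nucleotide exchange factor gene Hsph1 (HSP110), the cytosolic HSP90 genes Hsp90aa1 (the inducible form) and Hsp90ab1 (the constitutive form), and the mitochondrial chaperonin genes Hspd1 (HSP60) and Hspe1 (HSP10).

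Bulk RNA sequencing was done on 54 libraries in 18 groups of 3, from 24 mice. Brain macrophages were sorted as microglia (MG) or as CNS-associated macrophages of the subdural space (sdCAMs, found in the leptomeninges and around vessels) from brain without choroid plexus of wild-type (WT) mice, of mice labelled Ccr2-/- (Ccr2 KO) and of Ccr2CreERT2/CreERT2:R26tdT/tdT mice, written Ccr2Cre below. WT and Ccr2-/- mice were left untreated and given PBS, treated with vehicle (CTL) and then given LPS, or treated with BLZ945, a CSF1 receptor inhibitor that depletes these macrophages, and then given LPS. All Ccr2Cre mice received BLZ945 and 2 mg doses of tamoxifen, then LPS or PBS, and their sdCAMs were sorted as tdT+ (tdTomato switched on by tamoxifen in Ccr2-expressing cells and kept by their progeny) and tdT-. LPS, the endotoxin of Gram-negative bacteria, was given 8 weeks after treatment, and cells were taken 12 h later. The LPS comparison in WT and Ccr2-/- mice therefore set vehicle and LPS together against neither, whereas in Ccr2Cre mice LPS was the only treatment that differed by label. The Ccr2Cre mice given LPS were numbered 1, 5 and 7, and those given PBS 174, 175 and 177. Whether they differed in other ways is not known. Ages were not given in the labels. Names of mice labelled Ccr2-/- ended in m or f, with no key, and began with V after CTL and B after BLZ945. These letters are left out below, so untreated mouse 1 and CTL mouse 1 are different animals. The labels put WT and Ccr2-/- libraries in batch 1 and Ccr2Cre libraries in batch 2, so that batch and the Ccr2Cre genotype cannot be told apart, and no genotypes were compared.

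Libraries held 1705930 to 11330781 counts. The sorted cell types stood apart by their defining genes: the summed level of 6 sdCAM markers (Mrc1, Cd163, Lyve1, Ms4a7, F13a1 and Pf4) was 891 to 22400 CPM (counts scaled to a library total of 1000000) in 30 sdCAM libraries and 0.421 to 28.7 CPM in 24 MG libraries, and that of 4 MG markers (Tmem119, P2ry12, Sall1 and Siglech) was 1680 to 21900 CPM in MG. The MG markers also reached 135 to 5250 CPM in sdCAM libraries, and the tdT+ library of mouse 5 after LPS, with 2150 CPM of MG markers and 891 CPM of sdCAM markers, stood apart as the 1 sdCAM library of 30 in which the MG markers summed to more. Ccr2, the gene of the genotype label, was at 16.8 to 43 CPM in untreated WT sdCAMs and at 2.46 to 5.59 CPM in untreated sdCAMs labelled Ccr2-/-, but after CTL and LPS the order was opposite, with 0 to 0.26 CPM in WT and 2.92 to 5.32 CPM in those labelled Ccr2-/-, so this genotype is written as labelled throughout. For the LPS libraries labelled Ccr2-/-, the cell type in the titles was the opposite of that in the cell type field and the library name. The field and library name were followed, and with them MG markers summed to at least 2980 CPM in MG and at most 607 CPM in sdCAMs of these mice. In 6 of 9 WT sdCAM libraries (CTL and LPS 1, 4 and 6, untreated 9 and 14, BLZ945 and LPS 12) the labels carried the words IEG correction without giving their meaning. These 6 are termed marked. After LPS, the column of mouse 1 for tdT- cells bore the sequencing index number of the mouse 7 column for tdT+ cells, and the reverse. The female-specific transcript Xist and the Y-linked gene Ddx3y agreed between the libraries named for each mouse in 22 of 24 mice, and the other 2 were Ccr2Cre mice 1 and 7. Among the 22, untreated mouse 3 labelled Ccr2-/- has a full name that ends in m. Its sdCAM and MG libraries had Xist at 164 and 238 CPM and Ddx3y at 3.19 and 0.0873 CPM. The other mice with an m had Ddx3y at 76.6 CPM or more. The column named tdT- mouse 1 had 490 CPM of Xist and 0 CPM of Ddx3y, against 0 and 0.396 CPM of Xist and 51.4 and 136 CPM of Ddx3y in the MG and tdT+ columns of that mouse. The column named tdT+ mouse 7 had 0 CPM of Xist and 107 CPM of Ddx3y, against 745 and 439 CPM of Xist and 0 CPM of Ddx3y in MG and tdT- columns of that mouse. These values go against the names of both columns and match the exchange, whereas the summed neutrophil markers, 2160 CPM in the first and 28.6 CPM in the second, were nearer to the other columns of the population as named, at 553 and 1010 CPM for tdT- and 8.31 and 46 CPM for tdT+. Of the neutrophil markers S100a8, S100a9, Retnlg and Ly6g, only S100a8 had enough counts to be tested in Ccr2Cre sdCAMs. Which population each column holds is therefore uncertain. They are called here by their column names, and each tdT+ and tdT- value after LPS carries that limit. Member calls that use them are also given with the pair exchanged. Values of other gene lists and the figures are given only as named.

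Heat shock proteins bind unfolded or partly folded proteins and keep them from aggregating. HSP70 works in cycles that J-domain proteins such as DNAJB1 start and exchange factors such as HSPH1 reset, HSP90 receives clients such as kinases and steroid receptors from HSP70, and HSP60 with its lid HSP10 folds proteins imported into mitochondria. Many of these genes are switched on by heat shock factor 1 (HSF1), which binds as a trimer to repeats of the unit GAA or its complement TTC in alternating orientation.

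Promoter sequences were available for 6 of the 9 members (Hspa1a, Hspa1b, Dnajb1, Hspd1, Hspe1 and Hsph1) in the RefSeq promoter table of build GRCm38.p6, as windows of 250 bases before and 50 after an annotated start. Those of Hspa8, Hsp90aa1 and Hsp90ab1 are not shown. The windows were searched on both strands for the paired units GAANNTTC and TTCNNGAA and for triple units, in which a paired unit is followed after 2 bases of any kind by a further GAA or TTC in alternating orientation and which therefore contain a pair. A paired unit was found in 15.1% and a triple unit in 0.6% of all 32851 windows in the table. The 250 bases before the start are printed 5′ to 3′ on the gene's strand, with capitals marking the matches, for the HSP70 pair whose near identity limits their counts, for Hspe1, whose level varied most, and for Hsph1 and Dnajb1, the other members of the inducible group. Hspa1a lies at chr17:34972157-34972406 (minus strand), Hspa1b at chr17:34959239-34959488 (minus), Hspe1 at chr1:55087898-55088147 (plus), Hsph1 at chr5:149636337-149636586 (minus) and Dnajb1 at chr8:83607925-83608174 (plus).
Hspa1a: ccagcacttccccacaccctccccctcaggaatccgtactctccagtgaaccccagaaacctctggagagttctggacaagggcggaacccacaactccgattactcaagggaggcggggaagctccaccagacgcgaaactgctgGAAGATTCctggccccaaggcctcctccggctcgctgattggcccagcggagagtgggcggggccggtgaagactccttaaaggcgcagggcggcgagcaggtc
Hspa1b: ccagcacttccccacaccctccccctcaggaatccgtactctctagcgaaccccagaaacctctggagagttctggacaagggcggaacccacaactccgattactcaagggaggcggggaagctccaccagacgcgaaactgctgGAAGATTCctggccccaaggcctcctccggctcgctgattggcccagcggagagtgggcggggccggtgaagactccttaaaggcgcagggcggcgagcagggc
Hspe1: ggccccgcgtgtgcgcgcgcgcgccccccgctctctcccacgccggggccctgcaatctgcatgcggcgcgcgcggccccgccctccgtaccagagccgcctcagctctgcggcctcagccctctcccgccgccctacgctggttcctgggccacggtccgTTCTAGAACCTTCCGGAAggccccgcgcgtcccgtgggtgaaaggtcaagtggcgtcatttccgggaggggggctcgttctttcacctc
Hsph1: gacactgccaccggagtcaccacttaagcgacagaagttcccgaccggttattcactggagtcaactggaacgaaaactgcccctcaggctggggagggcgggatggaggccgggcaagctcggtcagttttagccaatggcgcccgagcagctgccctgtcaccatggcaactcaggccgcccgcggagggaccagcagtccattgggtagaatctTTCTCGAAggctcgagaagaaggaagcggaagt
Dnajb1: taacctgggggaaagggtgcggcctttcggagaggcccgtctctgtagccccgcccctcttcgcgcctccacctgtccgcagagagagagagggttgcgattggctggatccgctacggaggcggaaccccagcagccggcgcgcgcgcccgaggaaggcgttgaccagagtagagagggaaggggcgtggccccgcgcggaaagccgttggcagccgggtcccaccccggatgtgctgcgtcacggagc

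The windows of Hspa1a and Hspa1b were identical at 296 of 300 bases and each held GAAGATTC, which starts 104 bases before the start site. Hspe1 and Hspd1 lie head to head on chromosome 1, and the Hspe1 window shares 285 bases with one of the Hspd1 windows on the opposite strand. The run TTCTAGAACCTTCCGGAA in that shared stretch holds paired and triple units. In Hsph1, TTCTCGAA began 33 bases before the start, and a triple unit began 36 bases after it, beyond the stretch printed. The Dnajb1 windows held neither form, which says only that these letters are absent from them. CCAAT, searched on both strands as well, was present in the first windows of Hspa1a, Hspa1b, Dnajb1, Hspd1 and Hsph1 and in 37.41% of all windows, and TATAAA in none of the members' windows and in 13.62% of all.

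Levels between genes were compared per kilobase of transcript, with lengths from a mouse annotation (GENCODE vM21). Levels here and below are CPM after TMM scaling, which sets libraries to a common composition. Over the 54 libraries the HSP90 gene Hsp90ab1 had the highest median, at 320 CPM per kb (130 to 740), followed by Hspa8 at 193 CPM per kb (52 to 398). Below them lay Hspe1 at 63 CPM per kb (25.9 to 1930), Hspd1 at 41.3 (8.76 to 90.4), Hsp90aa1 at 31.6 (9.82 to 107), Dnajb1 at 19.5 (6.18 to 53) and Hsph1 at 8.22 CPM per kb (0.669 to 28.6). The inducible HSP70 genes were lowest, with medians of 0.434 CPM per kb for Hspa1b (0 to 15.1) and 0.235 CPM per kb for Hspa1a (0 to 8.02). The ranges of each gene and its neighbour in this order overlapped, and the order is a description.

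Several members share sequence with near-identical copies, so that a single read of 50 bases cannot always be placed. Of all 50-base stretches in their transcripts, 66.3% of those of Hspa1a and 62.3% of those of Hspa1b occurred in another annotated gene, mostly in each other, and the same held for 73.4% of Hspa8 stretches, 56.1% of Hsp90aa1, 44.8% of Hspd1 and 44.8% of Hspe1, mainly with pseudogenes. The shares were 4.5% for Hsp90ab1, 0.4% for Dnajb1 and 0 for Hsph1. Levels of the first 6 genes are uncertain to that extent, and Hspa1a and Hspa1b are best read together. A sum of their counts does not recover reads that were left uncounted.

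Hspa1a and Hspa1b were close to the limit of detection. Hspa1a was at 0 counts in 2 of 24 MG and 11 of 30 sdCAM libraries, and at or under 3 counts, the floor used here, in 9 and 14 of them. Hspa1b was at 0 in 0 of 24 MG and 8 of 30 sdCAM libraries, and at or under 3 counts in 1 and 13. High values came from single libraries: Hspa1b reached 42.3 CPM in untreated WT sdCAMs of mouse 9, where Hspa1a was at 0, and Hspa1a reached 23.8 CPM in those of mouse 15. In sdCAMs of untreated WT mice the 3 values of Hspa1a were 0, 0.398 and 23.8 CPM and those of Hspa1b were 42.3, 1.2 and 21.6 CPM. With so few counts, absence and a low level cannot be told apart. The other 7 members had more than 3 counts in every library.

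**Figure D1:**
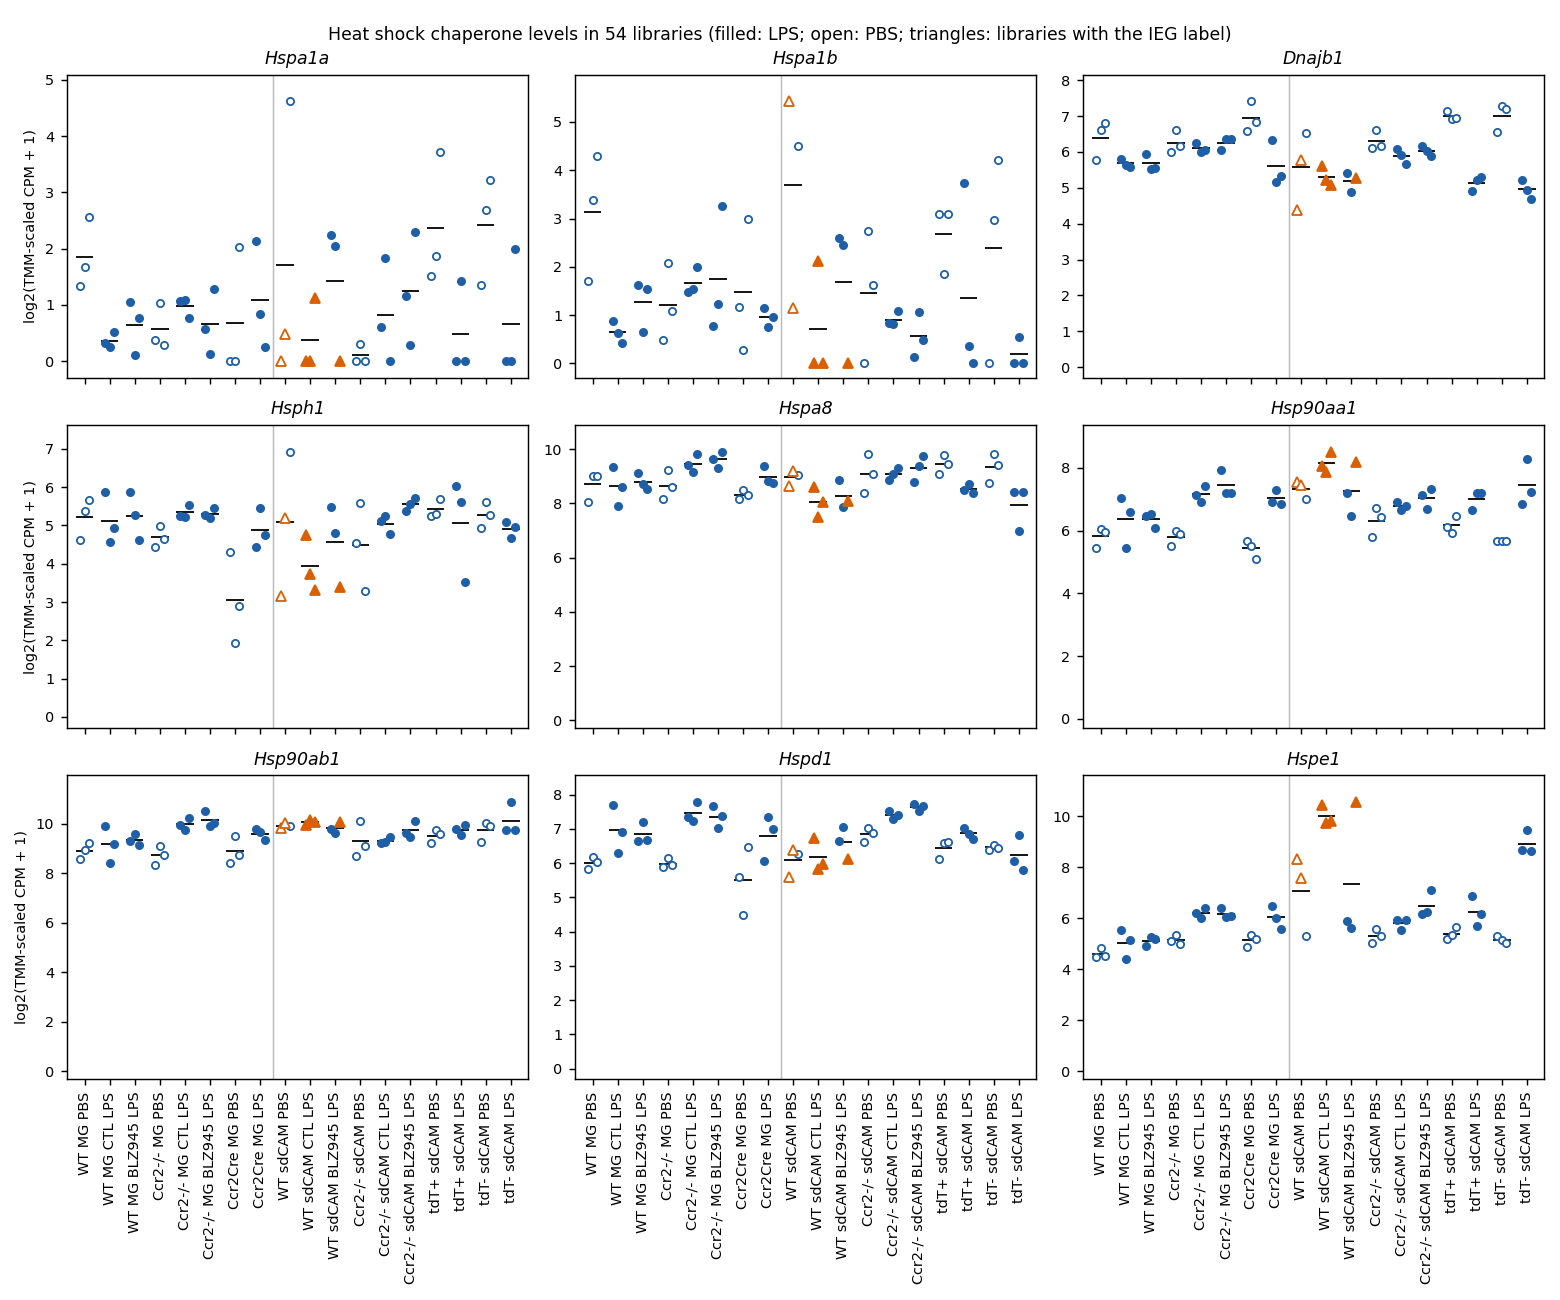
Level of each of the 9 chaperone genes in every library, as log2(TMM-scaled CPM + 1) on the vertical axis, by group on the horizontal axis. Filled points are libraries after LPS, open points libraries after PBS, orange triangles the 6 marked WT sdCAM libraries, and short lines the mean of the 3 log values. Hspe1 stands highest in the marked libraries and in tdT- sdCAMs after LPS, and Hspa1a and Hspa1b, with points at 0 in 13 and 8 libraries, lie below the other genes in most groups.

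The first question was how chaperone transcripts in MG responded to LPS. In WT mice, the mitochondrial chaperonin gene Hspd1 rose, and the inducible genes Hspa1a, Hspa1b and Dnajb1 fell. These 4 of 9 members passed edgeR's quasi-likelihood test at an adjusted p under 0.05, where 30.9% of all genes tested did (16.7% higher and 14.2% lower), so that the members' share lay little above that of all genes. Bulk levels are per RNA of the library, and for every comparison here fewer cells of a kind and less RNA per cell cannot be told apart. The p-values rest on the spread between mice within groups, estimated over all libraries of a fit, including groups outside the comparison. Where both sides of a comparison come from the same mice, the main test leaves out that pairing.

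Hspd1 in WT MG was at 55.6, 71.1 and 65.1 CPM in untreated mice 9, 14 and 15 and at 206, 77.6 and 120 CPM after CTL and LPS in mice 1, 4 and 6. The groups did not overlap, although mouse 4 was close to the untreated mice, and the log2 difference was 1.1 (SE 0.298, edgeR adjusted p = 0.0149). The stress-inducible HSP70 genes went the other way. Hspa1b had 21, 90 and 205 counts in the untreated mice (2.28, 9.38 and 18.7 CPM) and 10, 6 and 4 counts after LPS (0.832, 0.548 and 0.343 CPM), a log2 difference of -4.09 (SE 0.788, edgeR adjusted p = 0.00242). Hspa1a had 14, 21 and 54 counts before and 3, 2 and 5 counts after (log2 difference -3.25, SE 0.904, edgeR adjusted p = 0.0171). No library after LPS reached any untreated library for either gene, and the sum of both genes was 3.8, 11.6 and 23.7 CPM before and 1.08, 0.73 and 0.771 CPM after. Dnajb1, the J-domain gene, was at 53.6, 96.4 and 112 CPM in untreated mice and at 55, 49.2 and 47.1 CPM after LPS (log2 difference -0.77, SE 0.237, edgeR adjusted p = 0.028). Here untreated mouse 9 lay within the LPS range, and mice 14 and 15 lay above it.

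The remaining 5 members were not called in WT MG: the log2 differences were 0.71 for Hsp90aa1 (edgeR adjusted p = 0.12), 0.53 for Hspe1 (0.146), 0.39 for Hsp90ab1 (0.349), 0.01 for Hspa8 (0.984) and -0.03 for Hsph1 (0.966). Mouse 4 decided part of this. It had the lowest level of all 5 among the CTL and LPS mice, and without it Hsp90aa1 (1.05, edgeR adjusted p = 0.00189), Hsp90ab1 (0.69, 0.0228) and Hspe1 (0.8, 0.00697) were called too, 7 members in all. Without untreated mouse 15, Dnajb1 (-0.55, 0.137) and Hspa1a (-2.61, 0.0991) were lost and 2 members remained. The Dnajb1 call was also lost without untreated mouse 14 (0.092) or CTL mouse 6 (0.0934) and in a fit of only these 6 libraries (0.0517), that of Hspa1a without CTL mouse 1 (0.0594) and that of Hspd1 without untreated mouse 9 (0.0632), whereas that of Hspa1b held without each library in turn.

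In MG labelled Ccr2-/-, 6 of 9 members rose and none fell, where 34.9% of all genes tested were called (19.4% higher and 15.5% lower). Hspd1 went from 57.7, 69.6 and 60.4 CPM in untreated mice 1, 3 and 5 to 163, 148 and 219 CPM after CTL and LPS in mice 1, 2 and 4 (log2 difference 1.53, SE 0.194, edgeR adjusted p = 3.92e-05). Its partner Hspe1 went from 33.7, 39.3 and 31 CPM to 72, 62.9 and 84.6 CPM (1.11, SE 0.176, adjusted p = 0.000237). For both chaperonin genes each library after LPS lay above all untreated libraries.

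Both cytosolic HSP90 genes rose in these cells as well. Hsp90aa1 went from 44.3, 62.9 and 58.5 CPM to 138, 120 and 170 CPM (log2 difference 1.4, SE 0.22, edgeR adjusted p = 0.000227), and Hsp90ab1 from 327, 553 and 424 CPM to 1000, 852 and 1220 CPM (1.27, SE 0.205, adjusted p = 0.000289). The groups did not overlap for either gene. Of the HSP70 machinery, Hspa8 went from 285, 592 and 387 CPM to 683, 573 and 901 CPM (0.81, SE 0.243, adjusted p = 0.0192), with untreated mouse 3 inside the LPS range. Hsph1, the exchange factor gene, went from 20.8, 30.7 and 24.1 CPM to 36.9, 36.6 and 45.6 CPM with no overlap (0.69, SE 0.198, adjusted p = 0.015). The calls of Hspa8 and Hsph1 were lost without untreated mouse 1 (0.086 and 0.0763), untreated mouse 5 (0.0721 and 0.0527) or CTL mouse 4 (0.103 and 0.073), while the other 4 held without each library in turn.

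The inducible genes that fell in WT MG were not called in MG labelled Ccr2-/-. Dnajb1 was at 62.5, 97.7 and 70.5 CPM before and 75.8, 62.5 and 65.5 CPM after (log2 difference -0.14, SE 0.185, edgeR adjusted p = 0.592). The sum of Hspa1a and Hspa1b was 0.71, 4.28 and 1.34 CPM before and 2.87, 3.03 and 3.69 CPM after, and neither gene was called (log2 differences 0.88 and 0.51, adjusted p = 0.546 and 0.715). The untreated level of this sum in WT MG was 3.8 to 23.7 CPM, and the levels of the genotypes were not tested against each other. Whether the LPS response differed between the genotypes was not tested.

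In MG of Ccr2Cre mice, all of which had received BLZ945, 0 of 8 members tested were called by edgeR, where 1.08% of all genes tested were (0.662% higher and 0.423% lower). At an unadjusted p under 0.05 there were 1510 genes, Dnajb1 and Hsp90aa1 among them, and DESeq2 called 855 genes and of the members Hsp90aa1 alone (log2 difference 1.64, adjusted p = 0.00112). Hsp90aa1 was at 50, 44.9 and 33.2 CPM after PBS in mice 174, 175 and 177 and at 120, 155 and 115 CPM after LPS in mice 1, 5 and 7, without overlap (log2 difference 1.57, SE 0.372, edgeR adjusted p = 0.0975). Dnajb1 was at 94.2, 170 and 114 CPM after PBS and at 79.1, 34.5 and 39.2 CPM after LPS, also without overlap (-1.34, SE 0.491, adjusted p = 0.269). Hsph1 varied between PBS mice from 2.82 to 18.8 CPM and between LPS mice from 20.6 to 43.1 CPM (1.65, SE 0.831, adjusted p = 0.455). These 6 libraries were fitted alone.

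**Figure D2:**
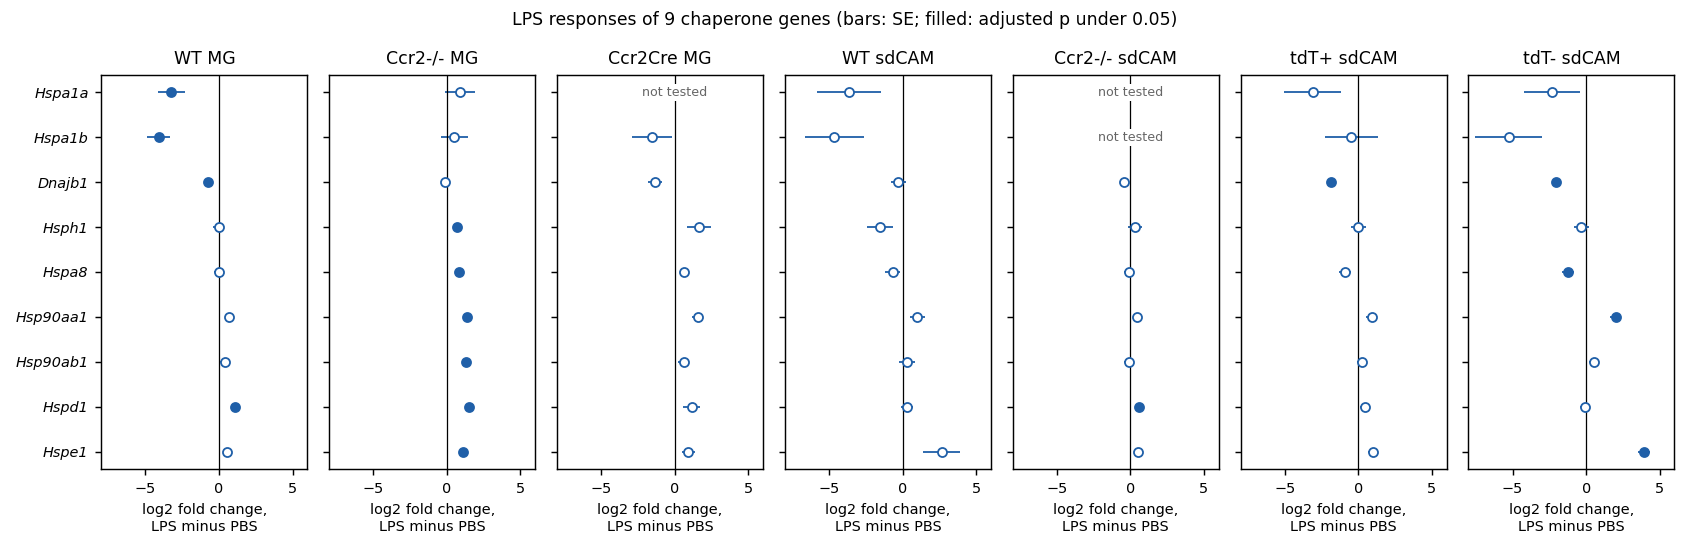
Log2 difference between LPS and PBS libraries for each of the 9 genes (horizontal axis, bars are the SE of the edgeR fit) in the 7 LPS comparisons. Filled points passed an adjusted p under 0.05 and open points did not. The filled points lie to the right for 6 genes in MG labelled Ccr2-/-, and Dnajb1 lies to the left in WT MG and in tdT+ and tdT- sdCAMs.

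The same question was asked of sdCAMs. In WT sdCAMs 0 of 9 members were called by edgeR, where 6.32% of all genes tested were (3.7% higher and 2.62% lower). DESeq2 called 1655 genes. At an unadjusted p under 0.05 there were 2627 genes and 1 member, Hspa1b (log2 difference -4.64, edgeR adjusted p = 0.178). Hspe1 was at 323, 190 and 38.9 CPM in untreated mice 9, 14 and 15 and at 1410, 861 and 904 CPM after CTL and LPS, with no overlap and a log2 difference of 2.67 whose SE was 1.26 (edgeR adjusted p = 0.217). The high untreated libraries, 9 and 14, were marked, while the low one was not. Between marked libraries alone (2 untreated, 3 after LPS) Hspe1 differed by 2.18 (SE 0.573, adjusted p = 0.0205), and in a fit of the 6 libraries by 2.67 (SE 0.762, adjusted p = 0.0404), so that this call turned on which libraries set the spread. Hsph1 went from 7.99, 35.5 and 121 CPM to 26.1, 12.2 and 9.03 CPM (-1.55, SE 0.871, adjusted p = 0.299), and the sum of Hspa1a and Hspa1b from 42.3, 1.59 and 45.4 CPM to 0, 3.32 and 1.17 CPM. Hspd1 stayed between 47.2 and 105 CPM in all 6 libraries (0.3, SE 0.429, adjusted p = 0.714). The mitochondrial leucyl-tRNA synthetase gene Lars2 took between 1.22% and 6.2% of counts in the untreated libraries and between 0.0581% and 0.191% after LPS, and its part in these values was not tested.

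In sdCAMs labelled Ccr2-/-, 1 of 7 members tested was called, where 28.8% of all genes tested were (15.8% higher and 13.1% lower), and the members' share thus lay below that of all genes. Hspd1 went from 97.8, 128 and 117 CPM to 181, 155 and 167 CPM, without overlap (log2 difference 0.55, SE 0.162, edgeR adjusted p = 0.0225). This call was lost without untreated mouse 1 (0.0844), untreated mouse 5 (0.052), CTL mouse 1 (0.081) or CTL mouse 4 (0.0546). Hspe1 was at 31.5, 46.5 and 38.4 CPM before and 60.5, 45.8 and 60.3 CPM after (0.52, SE 0.281, adjusted p = 0.2), and Hsp90aa1 at 54, 103 and 84.3 CPM before and 118, 98.9 and 110 CPM after (0.43, SE 0.246, adjusted p = 0.22). Dnajb1 was at 68.4, 97.1 and 71.2 CPM before and 67.1, 59.8 and 49.3 CPM after (-0.42, SE 0.218, adjusted p = 0.175), without overlap but not called. Hspa1a and Hspa1b had too few counts to be tested. The neutrophil marker sum (S100a8, S100a9, Retnlg and Ly6g) was 0.918 to 2.45 CPM before and 61.1 to 95.7 CPM after. Only S100a8 of these markers had enough counts to be tested (log2 difference 5.58, edgeR adjusted p = 1.73e-05). The part of this sum in the members' values was not tested.

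In tdT- sdCAMs of Ccr2Cre mice, 4 of 9 members were called after LPS, where 27.1% of all genes tested were (14.7% higher and 12.4% lower). Hspe1 rose from 38.1, 34.1 and 31.4 CPM after PBS to 415, 698 and 394 CPM after LPS (log2 difference 3.94, SE 0.389, edgeR adjusted p = 6.09e-06). Hsp90aa1 rose from 49.6, 49.4 and 50.3 CPM to 114, 311 and 148 CPM (2.01, SE 0.373, adjusted p = 0.000896). Neither pair of groups overlapped, and mouse 5 was highest after LPS for both genes. Other values moved with LPS in these libraries: the neutrophil marker sum was 0 CPM in each PBS library and 553 to 2160 CPM after LPS, Lars2 took 0.00895% to 0.00934% and 0.0434% to 1.01% of counts, and library totals were 9182362 to 9850283 and 3211833 to 8751293 counts. Of the neutrophil markers only S100a8 had enough counts to be tested here. The index of short minus long transcripts, defined below, was -0.79 to -0.21 after PBS and 0.66 to 2.22 after LPS. The part of all these in the members' values was not tested.

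Hspa8 and Dnajb1 fell in the same cells. Hspa8 went from 428, 902 and 683 CPM to 338, 125 and 338 CPM (log2 difference -1.25, SE 0.393, edgeR adjusted p = 0.0272), and Dnajb1 from 92.8, 154 and 147 CPM to 36.3, 29.9 and 25 CPM (-2.03, SE 0.322, adjusted p = 0.00027), both without overlap. Hspd1, at 82.4, 92 and 86.3 CPM after PBS and 65.4, 113 and 55 CPM after LPS, was not called (-0.08, SE 0.323, adjusted p = 0.879) although its head-to-head neighbour Hspe1 was. Hspa8 lost its call without LPS mouse 5 (0.0517) or PBS mouse 175 (0.122) or 177 (0.0648) and with the pair of columns exchanged (-1.28, adjusted p = 0.0835), whereas the other 3 genes were called in each of these fits, with Hspe1 at 3.56 (SE 0.807, adjusted p = 0.0123) after the exchange. Without either column of the pair all 4 were called, Hspe1 at 4.04 (adjusted p = 6.8e-05) and Hspa8 at -1.48 (adjusted p = 0.0384). The median of all genes here was 0.04 with TMM scaling and 0.23 with DESeq2's size factors. With those size factors Hspa8 differed by -1.05 and was not called (adjusted p = 0.0622), and the other 3 were called in the same directions.

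In tdT+ sdCAMs only Dnajb1 of 9 members was called after LPS, where 13.6% of all genes tested were (7.63% higher and 6% lower). It fell from 140, 120 and 122 CPM to 29.3, 36.3 and 38.1 CPM without overlap (log2 difference -1.84, SE 0.319, edgeR adjusted p = 0.00158), and it did so without the library of mouse 5 that stood apart (-1.89, adjusted p = 0.00368) and with the pair of columns exchanged (-1.86, adjusted p = 0.00725). Hspe1 was at 35, 40.1 and 49.1 CPM after PBS and 117, 50.7 and 71.6 CPM after LPS, also without overlap (0.99, SE 0.352, adjusted p = 0.0765). Without mouse 5 it was called (1.22, adjusted p = 0.0273), as it was by DESeq2 (1.03, adjusted p = 0.0329), and with the pair exchanged it differed by 2.29 and was not called (SE 0.766, edgeR adjusted p = 0.0774). Hsp90aa1 was at 67.9, 60.1 and 86.7 CPM and 99.1, 146 and 147 CPM (0.91, SE 0.362, adjusted p = 0.112). After PBS and LPS, respectively, Lars2 took 0.0108% to 0.0159% and 1.45% to 7.24% of counts, and totals were 8652557 to 9290262 and 2060240 to 5467630 counts. In the same order, an index of short minus long transcripts, defined below, was -0.37 to -0.02 and -1.76 to -1.3. No library after LPS overlapped those after PBS in any of these, and their part in the members' values was not tested.

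Across the 7 LPS comparisons Dnajb1 thus had a log2 difference below 0 in each, from -2.03 to -0.14, and was called lower in 3. Hsp90aa1 had one above 0 in each, from 0.43 to 2.01, and was called higher in 2. Hspe1 was above 0 in each as well, from 0.52 to 3.94, and was called higher in 2. By the mouse numbers in the labels, the tdT+ and tdT- comparisons come from the same mice, and so do the MG and sdCAM comparisons of each genotype. The 7 comparisons are therefore not independent.

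Whether sdCAMs and MG responded differently was tested as the response of sdCAMs minus that of MG. Among the labelled Ccr2-/- libraries 2 of 9 members were called, both lower in sdCAMs, where 8.14% of all genes tested were (3.5% higher and 4.64% lower). Hsp90ab1 rose by 1.27 in MG but had a log2 difference of -0.11 in sdCAMs, where it was at 414, 1100 and 557 CPM before and 593, 615 and 711 CPM after, and the difference of responses was -1.35 (SE 0.404, edgeR adjusted p = 0.0452). Hspd1 rose by 1.53 in MG and by 0.55 in sdCAMs, a difference of -0.94 (SE 0.258, adjusted p = 0.0278). Both stood in fits with mouse as a block (-1.25, adjusted p = 0.0087, and -0.92, adjusted p = 0.024). They depended on single libraries: Hsp90ab1 was lost in 8 and Hspd1 in 6 of 12 fits that left out 1 library, with adjusted p-values up to 0.127 and 0.0798. Those that cost both calls were untreated MG 1 and 5, untreated sdCAM 3, CTL sdCAM 2 and 4 and CTL MG 4, and CTL MG 1 and CTL sdCAM 1 cost that of Hsp90ab1. Without untreated sdCAM 1, Hsp90aa1 was called as well (-1.2, adjusted p = 0.0392).

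In WT and Ccr2Cre mice no member was called in this test by edgeR, where 1.32% (0.434% higher and 0.891% lower) and 1.04% (0.345% higher and 0.698% lower) of all genes tested were. At an unadjusted p under 0.05 there were 2344 and 1719 genes, and DESeq2 called 870 and 732. In Ccr2Cre mice, with tdT+ and tdT- counts summed per mouse, Hspe1 differed by 1.82 (SE 0.463, edgeR adjusted p = 0.0815) and Hspa8 by -1.77 (SE 0.451, adjusted p = 0.0837), both with an unadjusted p under 0.05, and DESeq2 called both (adjusted p = 0.00179 and 0.0105). With the pair of columns exchanged, edgeR called neither (1.85, adjusted p = 0.284, and -1.75, adjusted p = 0.159). In WT mice Hspe1 differed by 2.05 (SE 1.31, adjusted p = 0.431), and no member had an unadjusted p under 0.05. The median of all genes in this WT comparison was -0.23 with TMM and -0.07 with DESeq2's size factors.

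Hspe1 set itself apart from the other members by where it was high. In the WT sdCAM fit with group as a term, the marked libraries exceeded the unmarked ones at 1 of 9 members, Hspe1, where 7.97% of all genes tested were called and 7.68% were higher. Its level was 1410, 861 and 904 CPM in the marked CTL and LPS libraries, 323 and 190 CPM in untreated 9 and 14 and 1500 CPM in BLZ945 and LPS 12, against 38.9 CPM in untreated 15 and 59.3 and 48.5 CPM in BLZ945 and LPS 8 and 11. All 6 marked libraries lay above all 3 unmarked ones, and the log2 difference within groups was 3.89 (SE 0.556, edgeR adjusted p = 0.000554). It was 2.87 (adjusted p = 0.0515) without BLZ945 and LPS 12. All 3 CTL and LPS libraries were marked, so this difference rests on the untreated and BLZ945 groups. TMM factors of 0.363 to 0.521 in the CTL and LPS libraries and 0.392 in BLZ945 and LPS 12 raise scaled levels there, yet plain CPM without this scaling gave 513, 326, 471, 278, 191 and 587 CPM in the marked libraries and 46.7, 71.9 and 63.3 CPM in the unmarked ones.

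Of the other members, Hspa1a (log2 difference -6.37, SE 1.9, edgeR adjusted p = 0.0578) and Hsph1 (-2.07, SE 0.669, adjusted p = 0.0806) did not pass the test, and DESeq2 called both (adjusted p = 0.0167 and 0.0373). Hspa1a was at 0 counts in 4 of 6 marked libraries, so its fitted difference depends on the prior count. Hsph1 was called without untreated mouse 14 (-2.6, adjusted p = 0.0478). Other values moved with the mark. The 4 neutrophil markers S100a8, S100a9, Retnlg and Ly6g summed to 33.9 to 3080 CPM in marked and 0 to 47.1 CPM in unmarked libraries, almost all of it S100a8, with Retnlg and Ly6g at 0 in each marked library. The sdCAM marker sum was 9290 to 22400 CPM against 3040 to 8170 CPM. Lars2 took 0.0581% to 2.09% of counts against 4.14% to 6.2%. Immediate early genes, 14 of them including Fos, Jun and Egr1, summed to 1110 to 2110 CPM against 1250 to 2030 CPM, and so overlapped. The part of these in the Hspe1 result was not tested.

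HSP10 and HSP60 form one complex, and the ratio of Hspe1 to Hspd1 counts, chosen after the values were seen, is given as a description. It was 0.221 to 1.89 (median 0.404) in 45 libraries, of which 2 Ccr2Cre MG libraries exceeded 1, and 2.29 to 21.9 (median 14) in the 6 marked libraries. In tdT- sdCAMs after LPS it was 6.34, 6.15 and 7.15. Every marked library and each of these 3, as named, therefore lay above all others. With the pair of columns exchanged, tdT- sdCAMs after LPS would hold 0.689 in place of 6.34.

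**Figure D3:**
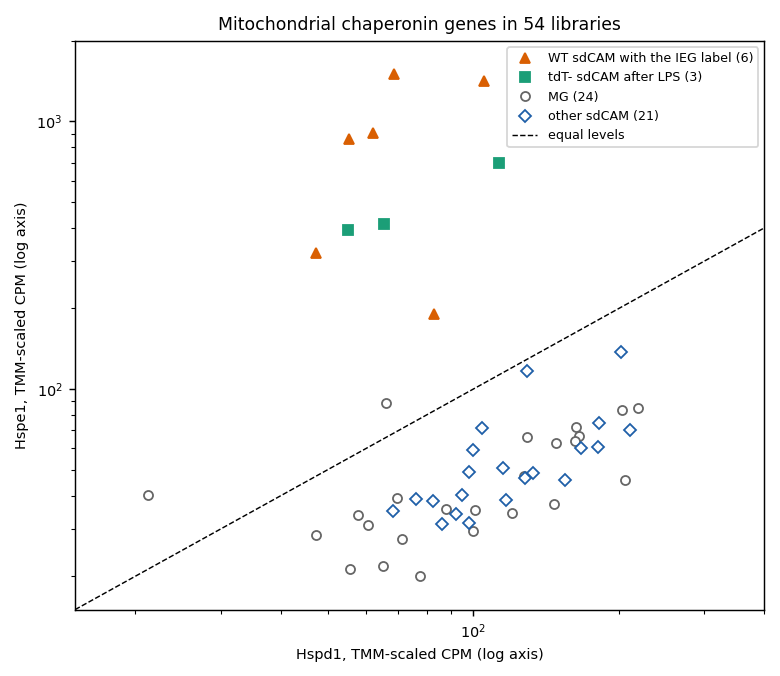
Hspe1 against Hspd1 in each library, as TMM-scaled CPM on log axes, with a line where both are equal. The 6 marked WT sdCAM libraries and the 3 tdT- sdCAM libraries after LPS lie above the line, with Hspe1 to Hspd1 count ratios of 2.29 to 21.9, and nearly all others lie below it, with a median ratio of 0.404.

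The Hspe1 transcript is the shortest among the members, at 774 bases against 2394 to 4223 bases for the others. Libraries differed in the level of short against long transcripts. Whether this came from recovery of RNA or from expression in the cells was not tested. An index was taken from each gene's log2(CPM + 1) as its deviation from that gene's mean over the libraries of the same cell type. It was the median deviation of 357 genes under 1000 bases minus that of 3372 genes over 4000 bases. The index was -0.21 to 3.7 in the marked libraries, -2.06 to -1.09 in the unmarked WT sdCAM libraries and 0.66 to 2.22 in tdT- sdCAMs after LPS. It is thus relative within MG and within sdCAMs, and not an absolute level. Over the 54 libraries this index and the log2 ratio of Hspe1 to Hspd1 had Pearson's r of 0.8 and Spearman's rho of 0.61, as a description, since the libraries share mice and the index and the ratio share their counts.

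**Figure D4:**
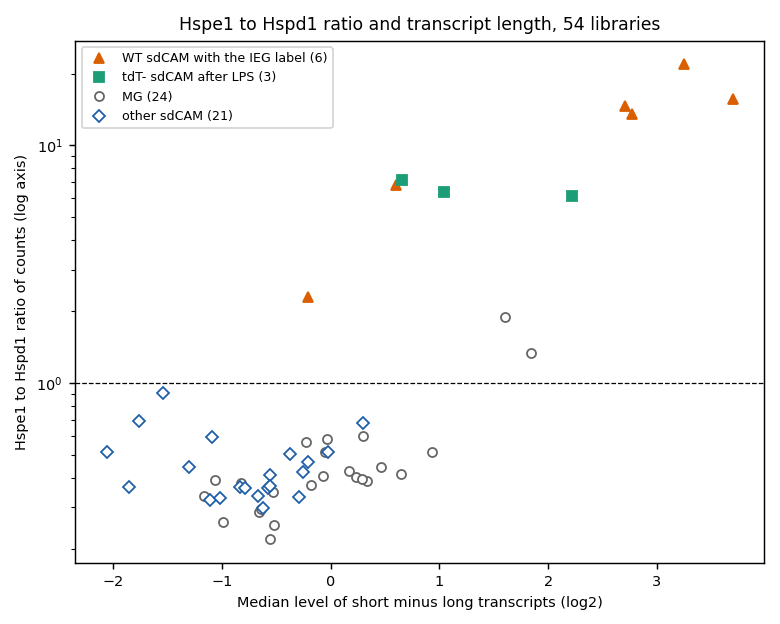
Ratio of Hspe1 to Hspd1 counts (log axis) against the index of short minus long transcripts in each of the 54 libraries. The index is a difference of median log2 deviations, centred within each cell type. Marked WT sdCAM libraries and tdT- sdCAM libraries after LPS lie toward the upper right (Pearson's r = 0.8 over all libraries).

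When a smooth curve of level on transcript length was taken out of each library as an offset, an alternative added after seeing the data, the Hspe1 differences moved by unequal amounts. The difference between marked and unmarked libraries went from 3.89 to 0.98 and was not called (edgeR adjusted p = 0.272). That of the LPS comparison in tdT- sdCAMs went from 3.94 to 2.25 and stayed called (adjusted p = 0.00023), that in tdT+ sdCAMs went from 0.99 to 1.87 and was then called (adjusted p = 0.0027), and that in MG labelled Ccr2-/- went from 1.11 to 0.79 and stayed called (adjusted p = 0.00482). In WT sdCAMs it went from 2.67 to 0.72 (adjusted p = 0.479).

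**Figure D5:**
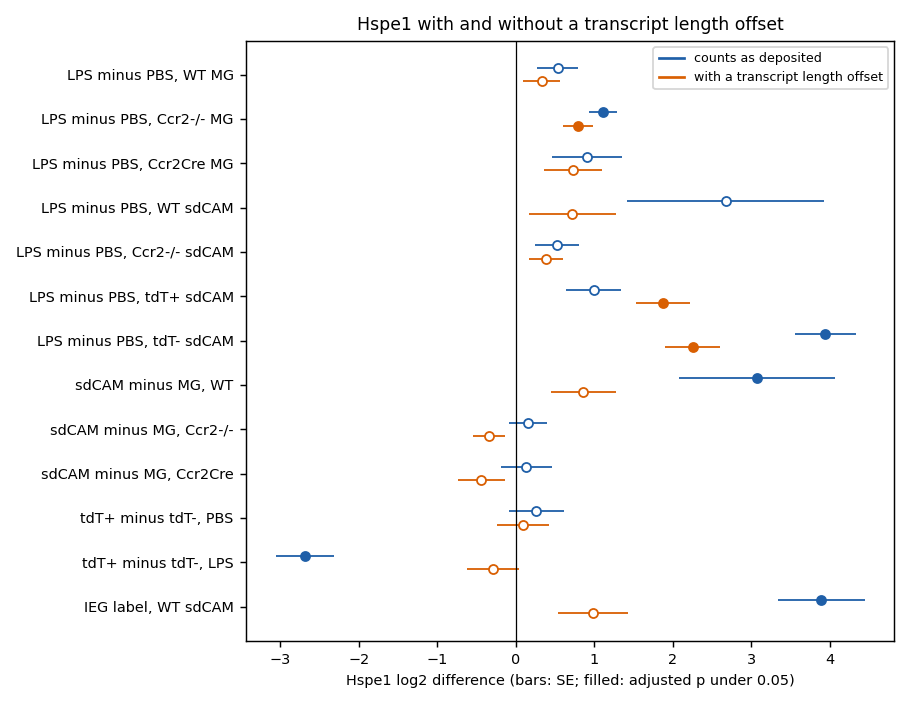
Log2 difference of Hspe1 in 13 comparisons (bars are the SE of the edgeR fit) without and with an offset for transcript length in each library. The value for marked against unmarked libraries moves from 3.89 to 0.98 and that for LPS in tdT- sdCAMs from 3.94 to 2.25.

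The tdT+ and tdT- sdCAMs of the same mice were compared next. After PBS 0 of 9 members were called by edgeR, where 0.0236% of all genes tested were, and no member reached an unadjusted p under 0.05 although 566 genes did. DESeq2 called 81 genes. Log2 differences there ran from -0.45 for Hspa1b (SE 1.79) to 0.52 for Hsp90aa1 (SE 0.36, edgeR adjusted p = 1). After LPS 1 of 9 members was called, where 10.8% of all genes tested were (3.85% higher and 6.92% lower). As the columns are named, Hspe1 was lower in tdT+ sdCAMs, at 117, 50.7 and 71.6 CPM, than in tdT- sdCAMs, at 415, 698 and 394 CPM in mice 1, 5 and 7 (log2 difference -2.69, SE 0.369, edgeR adjusted p = 0.000166). With the pair of columns exchanged, the assignment that the sex-linked genes match, it was -1.01 and not called (SE 0.737, adjusted p = 0.893), and no gene of all those tested was called. With mouse as a block it was -2.72 (adjusted p = 0.000699) as named, where the sex-linked genes differ within 2 of the 3 pairs, and -0.82 (adjusted p = 0.981) with the pair exchanged. Without the pair it was -2.73 (adjusted p = 0.00394), from 2 libraries a group, and with the length offset -0.29 (adjusted p = 0.688). The call thus stood as named and without the pair, and was lost with the pair exchanged or with the length offset. The neutrophil marker sum was 553 to 2160 CPM in tdT- and 8.31 to 46 CPM in tdT+ sdCAMs after LPS, with Retnlg and Ly6g at 0 in the tdT- libraries, and its part in the result was not tested. The median of all genes in this comparison was 0.11 with TMM and -0.01 with DESeq2's size factors.

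Resting sdCAMs and MG were compared within each genotype. In untreated WT mice 2 of 9 were called, both higher in sdCAMs, where 17.4% of all genes tested were (12% higher and 5.46% lower). Hsp90aa1 was at 184, 173 and 128 CPM in sdCAMs and 42.1, 64.6 and 61.4 CPM in MG of mice 9, 14 and 15 (log2 difference 1.61, SE 0.459, edgeR adjusted p = 0.0232). Hspe1 was at 323, 190 and 38.9 CPM in sdCAMs and 21.2, 27.6 and 21.8 CPM in MG (3.07, SE 0.994, adjusted p = 0.041). Each sdCAM library lay above all MG libraries for both, but with the mark as a covariate Hspe1 differed by 0.06 (adjusted p = 0.957) and Hsp90aa1 by 0.91 (adjusted p = 0.202). With mouse as a block Hspe1 was not called (2.63, adjusted p = 0.0616). Both calls were lost in each fit without 1 library except the one without sdCAM 15, namely without sdCAM 9 or 14 or MG 9, 14 or 15, with adjusted p-values up to 0.108 for Hsp90aa1 and 0.15 for Hspe1. Hsp90ab1 was at 911, 1060 and 965 CPM in sdCAMs and 380, 496 and 592 CPM in MG (1.07, SE 0.38, adjusted p = 0.0587).

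In untreated mice labelled Ccr2-/-, 1 of 9 members was called, where 22.4% of all genes tested were (12.5% higher and 9.9% lower). Hspd1 was at 97.8, 128 and 117 CPM in sdCAMs and 57.7, 69.6 and 60.4 CPM in MG of mice 1, 3 and 5, without overlap (log2 difference 0.87, SE 0.184, edgeR adjusted p = 0.00168), and stayed called without each library in turn. Hsp90ab1 was at 414, 1100 and 557 CPM in sdCAMs and 327, 553 and 424 CPM in MG (0.67, SE 0.286, adjusted p = 0.106), higher in sdCAMs in 3 of 3 mice, and was called with mouse as a block (0.57, adjusted p = 0.0395). Without sdCAM 1, Hsp90aa1 (0.77, adjusted p = 0.0375) and Hsp90ab1 (0.94, adjusted p = 0.0227) were called too. In Ccr2Cre mice after PBS, with tdT+ and tdT- counts summed per mouse, 1 of 9 was called, where 8.96% of all genes tested were (6% higher and 2.96% lower). Hspa8 averaged 740 CPM in sdCAMs and 331 CPM in MG (1.12, SE 0.321, adjusted p = 0.0463), but with mouse as a block the adjusted p was 0.0994, and the call was lost in 5 of 6 fits without 1 library, all but that without MG 175, with adjusted p-values up to 0.198. Hsph1 averaged 43.5 and 9.82 CPM (2.11, SE 0.659, adjusted p = 0.0655) and was called without MG 174 (3.12, adjusted p = 0.0137).

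Earlier depletion with BLZ945 was compared with CTL, both after LPS. No member was called in any of the 4 comparisons by edgeR, where 0.0763% (WT MG, 0.0594% higher and 0.017% lower), 0% (WT sdCAMs), 0.0173% (MG labelled Ccr2-/-) and 0% (sdCAMs labelled Ccr2-/-) of all genes tested were. At an unadjusted p under 0.05 there were 776, 758, 769 and 998 genes, among them 1 member, Hspe1 in sdCAMs labelled Ccr2-/-. DESeq2 called 73, 11, 38 and 88 genes. Hspe1 there was at 60.5, 45.8 and 60.3 CPM with CTL and 70.3, 74.7 and 137 CPM with BLZ945 (log2 difference 0.75, SE 0.28, edgeR adjusted p = 0.523). In WT sdCAMs Hspe1 was at 1410, 861 and 904 CPM with CTL and 59.3, 48.5 and 1500 CPM with BLZ945 (-1.03, SE 1.2, adjusted p = 0.824). Without the marked BLZ945 library 12, the difference was -4.44 (adjusted p = 0.0127), and it then set 3 marked against 2 unmarked libraries, so that the mark and BLZ945 cannot be told apart. In MG the log2 differences of the 7 members other than Hspa1a and Hspa1b ran from -0.2 to 0.11 in WT and from -0.1 to 0.3 in those labelled Ccr2-/-, with SE of 0.172 to 0.387.

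Other chaperone families gave context for the members. Counts of each list below after LPS are to be read against the shares of all genes tested that were called higher and lower. These were 16.7% and 14.2% in WT MG, 19.4% and 15.5% in MG labelled Ccr2-/-, 0.662% and 0.423% in Ccr2Cre MG and 3.7% and 2.62% in WT sdCAMs. They were 15.8% and 13.1% in sdCAMs labelled Ccr2-/-, 7.63% and 6% in tdT+ sdCAMs and 14.7% and 12.4% in tdT- sdCAMs. The 8 subunits of TRiC, the cytosolic chaperonin that folds actin and tubulin, were called higher after LPS in 6 of 8 cases in WT MG (median log2 difference 0.92, against 0.02 over all genes tested), 8 of 8 in MG labelled Ccr2-/- (1.26 against 0) and 7 of 8 in sdCAMs labelled Ccr2-/- (0.77 against -0.05). Cct2 rose by 1.09 in WT MG (SE 0.207, edgeR adjusted p = 0.0023) and by 1.18 in sdCAMs labelled Ccr2-/- (SE 0.173, adjusted p = 0.000246), and Cct5 by 1.41 in MG labelled Ccr2-/- (SE 0.144, adjusted p = 6.16e-06). In WT sdCAMs and Ccr2Cre MG 0 of 8 were called (medians 0.27 and 0.88). In tdT+ sdCAMs 1 was higher, and in tdT- sdCAMs 1 was higher (Cct2, 1.03) and 2 lower (Tcp1, -1.02, and Cct4, -0.86).

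Of 7 other mitochondrial chaperones and proteases, 4 rose in WT MG, 6 in MG labelled Ccr2-/- and 4 in sdCAMs labelled Ccr2-/- (medians 0.59, 0.86 and 0.67), where 16.7%, 19.4% and 15.8% of all genes tested were called higher. The other 3, 1 and 3 were not called. Hspa9, the mitochondrial HSP70 gene, rose by 1.08, 1.19 and 1.16 (edgeR adjusted p = 0.0048, 0.000113 and 0.000971), and Trap1, the mitochondrial HSP90 gene, by 0.97, 0.86 and 0.88 (0.00104, 0.00329 and 0.0135). In tdT- sdCAMs the protease gene Clpp rose by 2.55 (adjusted p = 0.00191), while Dnaja3 fell by 1.87 (0.000824) and Clpx by 2.25 (0.00245). In WT sdCAMs, Ccr2Cre MG and tdT+ sdCAMs 0 of 7 were called. Clpp was also higher in marked WT sdCAM libraries (2.63, adjusted p = 0.0018), where 7.68% of all genes tested were higher and 0.286% lower. The marked libraries and tdT- sdCAMs after LPS also differed from those they were compared with in the index of short minus long transcripts. The part of that index in the calls of Clpp, Dnaja3 and Clpx, and in those of the other lists in these comparisons, was not tested.

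Of 14 chaperones of the endoplasmic reticulum, 5 were lower after LPS in WT MG (Calr, -0.51, Pdia4, -0.52, Pdia6, -0.5, and Sdf2l1, -0.66, among them), where 14.2% of all genes tested were lower. In MG labelled Ccr2-/- 2 were higher (Manf, 0.54, and Hspa5, 0.46), where 19.4% of all genes were. In sdCAMs labelled Ccr2-/- 4 were lower, where 13.1% of all genes were. In tdT+ sdCAMs 1 was higher (Hyou1, 3.83), where 7.63% of all genes were. In tdT- sdCAMs 6 were lower, including the protein disulfide isomerase gene Pdia3 (-2.05, edgeR adjusted p = 0.000923) and Hspa5 (-1.29, adjusted p = 0.00544), and 1, Manf, was higher (1.83, adjusted p = 0.00525). The list's median there was -0.84, against 0.04 over all genes, of which 12.4% were called lower and 14.7% higher. In WT sdCAMs and Ccr2Cre MG 0 of 14 were called.

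Among 10 co-chaperones of HSP70 and HSP90, the glucocorticoid-induced immunophilin gene Fkbp5 rose in each of the 7 LPS comparisons, by 3.63 in WT MG (edgeR adjusted p = 3.09e-08), 3.72 in MG labelled Ccr2-/- (5.02e-10), 2.52 in Ccr2Cre MG (0.0244), 3.89 in WT sdCAMs (0.0189), 4.35 in sdCAMs labelled Ccr2-/- (1.84e-07), 2.23 in tdT+ sdCAMs (0.0278) and 2.17 in tdT- sdCAMs (0.0178). It was the only gene of this list called in WT sdCAMs and in Ccr2Cre MG. St13, the HIP co-chaperone gene, fell in WT MG (-0.89, adjusted p = 0.00139) and MG labelled Ccr2-/- (-0.72, 0.0101) but rose in tdT- sdCAMs (1.34, 0.0208). The list held 1 higher and 1 lower call in WT MG, 4 and 1 in MG labelled Ccr2-/-, 3 and 1 in sdCAMs labelled Ccr2-/-, 1 and 1 in tdT+ sdCAMs and 2 and 1 in tdT- sdCAMs.

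Of 10 small and other stress-inducible chaperones, Hspa4, an HSP110 relative of Hsph1, was the only one called in WT MG (1.04, edgeR adjusted p = 0.00339), in MG labelled Ccr2-/- (1.2, 0.00051) and in sdCAMs labelled Ccr2-/- (1.05, 0.000898). In tdT- sdCAMs Ahsa1, an HSP90 activator, was lower (-1.86, adjusted p = 0.00549), and in the other 3 LPS comparisons 0 were called. Of 3 regulators of the heat shock response, Hsbp1, whose product binds HSF1, was higher in MG labelled Ccr2-/- (0.55, adjusted p = 0.0131), in sdCAMs labelled Ccr2-/- (1.06, 0.000601), in tdT- sdCAMs (1.67, 0.00249) and in marked against unmarked WT sdCAM libraries (2.69, 0.0164). Hsf1 was lower in MG labelled Ccr2-/- (-0.57, adjusted p = 0.0239) and in tdT- sdCAMs, and Hsf2, the gene of a second heat shock factor, was higher in tdT+ sdCAMs, from near 0 counts, and in tdT- sdCAMs (4.69, 0.0048). In WT MG, WT sdCAMs and Ccr2Cre MG 0 of 3 were called.

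Calls in these families between resting cell types are to be read against the shares of all genes tested. These were 12% higher and 5.46% lower in WT mice. They were 12.5% and 9.9% in mice labelled Ccr2-/- and 6% and 2.96% in Ccr2Cre mice. In untreated WT mice St13 (2.06, edgeR adjusted p = 0.00966), Dnaja1 (1.44, 0.0364) and Clpp (2.04, 0.0461) were higher in sdCAMs, and Hyou1 (-1.84, 0.0271) and Dnaja3 (-1.29, 0.00641) were lower. In untreated mice labelled Ccr2-/- Lonp1 (0.79, 0.00447) and Clpp (0.63, 0.0359) were higher and Fkbp5 lower (-1.23, 0.000105), and in Ccr2Cre mice Hspa4l and Cryab, at or near 0 counts in MG, were higher and Hyou1 (-2.94, 0.00173) and Hsf2 (-3.3, 0.0146) lower. In marked against unmarked WT sdCAM libraries Cdc37, an HSP90 co-chaperone gene, was higher (1.68, 0.0157) beside Hsbp1 and Clpp, and no other gene of the 6 families was called. The part of transcript length in these calls was not tested. Immediate early genes, which respond within minutes to many stimuli, were called higher after LPS in 6 of 13 tested in WT MG, 8 of 13 in MG labelled Ccr2-/-, 5 of 13 in sdCAMs labelled Ccr2-/- and 1 each in WT, tdT+ and tdT- sdCAMs, and lower in 1 each in WT MG, MG labelled Ccr2-/- and tdT- sdCAMs. Dusp1, the gene of a phosphatase that ends MAP kinase signalling, rose by 5.32 in WT MG (edgeR adjusted p = 3.72e-06) and by 2.97 in WT sdCAMs (0.0232).

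Within groups the members did not vary as one. With each library taken as its deviation from the group mean of log2(CPM + 1), over the 54 libraries, the highest correlations between members were 0.68 for Hsp90aa1 and Hsp90ab1, 0.59 for Hsp90aa1 and Hspe1 and 0.49 for Hspd1 and Hsph1, and the lowest were -0.49 for Hspa1a and Hspe1 and -0.42 for Hspe1 and Hsph1. The head-to-head pair Hspd1 and Hspe1 had -0.11. The mean deviation of the 4 inducible members (Hspa1a, Hspa1b, Dnajb1 and Hsph1) was most like that of Zbtb11 (Pearson's r = 0.63), Rcor1 (0.63), Ctnnb1 (0.61), Ttc7b (0.61) and Msl2 (0.61) among 8777 genes. These correlations are descriptions over libraries that share mice, batches and differences in depth and in the level of short against long transcripts.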

How the data were processed

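RNA was amplified by the authors with a SMARTer ultra-low input kit, libraries were made with Nextera XT and sequenced as single reads of 50 bases, and reads were aligned with STAR 2.7.11a and counted per gene with featureCounts 2.0.8, per the methods and the submitters' processing notes. The deposited values were raw counts per gene symbol in 3 tables of 18 libraries, with no normalization and no molecular identifiers, so detection floors cover counting error only. Strand setting is not given in the sources used here, and the sources name the genome build in 2 ways. Amplified low input can lose long or rare transcripts unevenly between libraries.

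Columns were matched to samples by library number, mouse and population, leaving 0 unmatched, and replicates differed by more than sampling noise. For each comparison edgeR 4.0.16 was run under R 4.3.3 (quasi-likelihood test, filterByExpr, TMM, two-sided, Benjamini-Hochberg over all genes tested, called at an adjusted p under 0.05 with no fold limit), and DESeq2 1.42.0 was an alternative. The fit was also run on simulated counts with known changes, and the outcome is not reported here. MG and sdCAMs share mice by the mouse numbers in the labels, so the fit with mouse as a block is printed beside a result where it changed a call. Deviations of same-mouse libraries from their group means correlated at 0.01 to 0.13 in WT and -0.02 to 0.16 in mice labelled Ccr2-/- (9 pairs each), and at 0.02 to 0.13 in Ccr2Cre mice and 0.04 to 0.17 between tdT+ and tdT- libraries as named (6 pairs each), or 0.02 to 0.27 with the conflicting columns exchanged. Other settings tried were DESeq2's size factors, no low-count filter, only the groups compared, a fold limit, each library left out, the mark as a covariate, exchanged columns and a length offset, the last chosen after seeing the data with lengths for 96.9% of genes at 10 CPM or more.

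The 9 members and the companion lists (TRiC, other mitochondrial, endoplasmic reticulum, co-chaperone, small and other stress-inducible, heat shock regulators, immediate early and marker genes) were chosen with earlier results of these data known. All members were named, and of each companion list up to 4 called genes with the smallest p per comparison. Hsf2, Hspa4l and Cryab are noted as near 0 counts after their values were seen. Some marker genes are not reported here, and sums are over the markers named.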

Additional observations from a re-analysis of the deposited data

Results flagged for a closer look

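Among the libraries labelled Ccr2-/-, the LPS response differed between cell types by a test of the difference itself for 2 members. For Hsp90ab1 the response of sdCAMs minus that of MG was -1.35 (a log2 value, SE 0.404, edgeR adjusted p = 0.0452), with a response of 1.27 in MG and -0.11 in sdCAMs. For Hspd1 it was -0.94 (SE 0.258, edgeR adjusted p = 0.0278), with 1.53 in MG and 0.55 in sdCAMs. Over all genes tested 8.14% were called, and leaving out 1 library lost the call of Hsp90ab1 in 8 and that of Hspd1 in 6 of 12 fits. Groups of 3 libraries are too small to test a single library against its group, so none was examined in that way.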

How the results depend on the processing

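The values below count members called by edgeR, of up to 9, in each of 20 comparisons, and no called member changed direction under any setting run. In LPS comparisons, WT sdCAMs went from 0 to 2 with no low-count filter, 1 with only the groups compared and 1 with marked libraries alone (664 calls over all genes, against 1518, 1359 and 1341). The sdCAMs labelled Ccr2-/- went from 1 to 0 with the length offset and 0 with a log2 fold limit of 1, Ccr2Cre MG from 0 to 1 with DESeq2 (118 and 855 genes), and tdT+ sdCAMs from 1 to 2 with DESeq2 and 2 with the length offset (1731, 2630 and 1413 genes). Between cell types, WT went from 2 to 0 with the mark as a covariate (2291 and 1161 genes), Ccr2-/- from 1 to 3 with no filter and 0 with the fold limit, and Ccr2Cre from 1 to 2 with DESeq2, 0 with its size factors and 2 with the length offset (1142, 2020, 1146 and 1269 genes). For cell type by LPS, Ccr2-/- went from 2 to 1 with size factors, 4 with no filter and 1 with the fold limit, and Ccr2Cre from 0 to 2 with DESeq2 (133 and 732 genes). For tdT after LPS, 1 went to 0 with the length offset and 0 with the columns exchanged (1368, 865 and 0 genes), and for the mark 1 went to 3 with DESeq2, 2 with no filter and 0 with the length offset (837, 1436, 1240 and 540 genes). Counts over all genes also moved for cell type by LPS in WT (174, against 870 with DESeq2, 838 with no filter and 433 with the mark as a covariate), for LPS in tdT- sdCAMs (3448, against 1513 with the columns exchanged), in tdT+ sdCAMs (1731, against 1097 likewise), in WT sdCAMs (664, against 1142 with the covariate), in Ccr2Cre MG (118, against 268 with no filter), for cell type by LPS in Ccr2Cre mice (133, against 484 with no filter and 75 with the columns exchanged), for tdT after LPS (1368, against 664 with only the groups compared) and, with the fold limit, for LPS in WT MG (3643 and 1972) and Ccr2-/- MG (4036 and 2243). The causes were not tested.

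With mouse as a replicate block, cell type calls went from 2 to 1 in WT (1380 genes), from 1 to 2 in Ccr2-/- (2585 genes) and from 1 to 0 in Ccr2Cre (500 genes), those for tdT after LPS stayed at 1 but were 0 with the columns exchanged as well, and no other count of members moved. Over all genes the block gave 91 calls for cell type by LPS in WT and 2 in Ccr2Cre. Leaving out 1 library at a time gave 2 to 7 for LPS in WT MG, 4 to 6 in Ccr2-/- MG, 0 to 1 in Ccr2-/- sdCAMs, 1 to 2 in tdT+ and 3 to 4 in tdT- sdCAMs, 0 to 2, 1 to 3 and 0 to 1 between cell types in WT, Ccr2-/- and Ccr2Cre, 0 to 3 for cell type by LPS in Ccr2-/-, 0 to 1 for BLZ945 in WT sdCAMs and 0 to 2 for the mark. Counts in the other comparisons did not move.

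Depth limits Hspa1a and Hspa1b, at or under 3 counts in 14 and 13 of 30 sdCAM libraries and in 9 and 1 of 24 MG libraries. The other 7 members had more than 3 counts throughout and were limited by the spread between 3 mice.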
